A study of Sus scrofa with 5 samples.

Results

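Antigen receptor gene segments and plasma cell genes were examined in ovarian follicles of the Indian Ghoongroo pig, a domestic breed of Sus scrofa. The members were every gene row annotated as a C_region (constant region) or a V_segment (variable segment), together with MZB1, JCHAIN and XBP1, and came to 140 of the 30822 rows in each file. They comprised 16 constant regions, 121 variable segments and the 3 named genes. RNA sequencing had been done on 3 libraries of large and 2 libraries of small follicles of female pigs of this breed. The study compared gene expression between the 2 follicle sizes. Follicle diameter, animal age, cycle stage and the number of follicles or animals behind a library were not given in the sources used here. The labels call the replicates biological without tying them to separate animals, so the p-values reflect the spread among these libraries alone.

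Antibodies are built from paired heavy and light chains, and T-cell receptors from paired alpha and beta or gamma and delta chains. Each chain joins a variable part, which binds antigen, to a constant part, and the segments for both lie in clusters in the genome. Plasma cells, the antibody-secreting end stage of B cells, transcribe the rearranged heavy and light chain genes at very high rates. MZB1 is an endoplasmic reticulum protein that helps antibody chains assemble. JCHAIN joins IgM and IgA units into polymers, and XBP1 is the transcription factor that enlarges the secretory apparatus and is also active in many other secretory cells.

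All 137 segment rows carried placeholder names beginning with LOC and 0 had a description naming a chain, so their class could not be read from name or description. They were classed by position instead: 108 lay within 1000000 bases of a row on the same sequence that names a chain. Another 10 lay within the same distance of genes known to lie near the locus. By this rule 50 rows were immunoglobulin and 68 were T-cell receptor rows, and 19 rows on 7 unplaced scaffolds were not classed. The immunoglobulin rows were 25 heavy chain rows, 19 kappa light chain rows and 6 lambda light chain rows. In build Sscrofa11.1 the lambda rows stood on chromosome 14 (48760057 to 49010876). Of the kappa rows, 6 stood on chromosome 3 (57143799 to 57321338), within 1000000 bases of EIF2AK3 and RPIA, and 13 on an unplaced scaffold. All heavy chain rows lay on unplaced scaffolds, 9 of them constant regions beside a row named IgG heavy chain. The T-cell receptor rows were 47 alpha/delta rows on chromosome 7 (76800497 to 77488134), 17 beta rows on chromosome 18 (7431310 to 7734849) and 4 gamma rows on chromosome 9 (108678512 to 108784323).

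Library totals ran from 9523739 to 11507527 fragments, and between 11784 and 13064 rows per library reached 1 FPKM (a level in which fragments are divided by the length of the gene and by the library total). Rows that reached 1 FPKM in at least 2 of the libraries entered limma, a linear model that shares the spread between libraries across genes, on log2(FPKM + 1). Of 13087 rows tested, 128 (0.978%) were called, that is, had a limma p under 0.05 after Benjamini-Hochberg adjustment. Of these, 70 were higher in large follicles and 58 were lower. With the libraries scaled to a common FPKM sum the split was 66 higher and 86 lower. The median log2 difference of all rows tested was -0.08, and -0.19 with that scaling. Each log2 difference is the large mean minus the small mean of log2(FPKM + 1), a scale that shrinks the change of genes with low levels. The ± sign precedes an SD, with n = 3 large and n = 2 small libraries.

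Immunoglobulin transcripts were more abundant in large than in small follicles, in heavy, kappa and lambda rows, whereas T-cell receptor rows under the rule were low in every library. The classes differ in make-up, with 11 constant and 39 variable rows for immunoglobulin and 5 and 63 for the T-cell receptor. The alpha/delta rows held 0 constant regions. LOC100621559 and LOC102160313, described as beta and delta constant regions, had another biotype and stood outside the rule, so the class levels are not like for like. Of the 140 members, 72 were above 0 in some library, 68 were at 0 in all 5 libraries, and 46 of the 72 rested on at most 10 recovered fragments in all. Fragments here and below are recovered counts, for 70 of the 72 the fewest that fit the FPKM values. Members that passed the filter numbered 17: 13 immunoglobulin rows, 1 row not classed and the 3 plasma cell genes. Of these 17, 8 were called higher, against 0.535% of all rows tested, and 1 was called lower, against 0.443%. The 8 fell to 3 without large follicle replicate 1 and to 4 without small follicle replicate 2. Values did not overlap between the groups for 14 members that were higher and 1 that was lower, against 10.9% and 15.2% of all rows tested, or 26.1% in either direction. The 13 immunoglobulin rows tested had a median log2 difference of 1.57. A row that passed the filter through 1 group only had to differ, and LOC110258687, LOC110258690 and LOC110258327 are of this kind. In such bulk samples more cells of a type and more RNA per cell cannot be told apart.

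**Figure D1:**
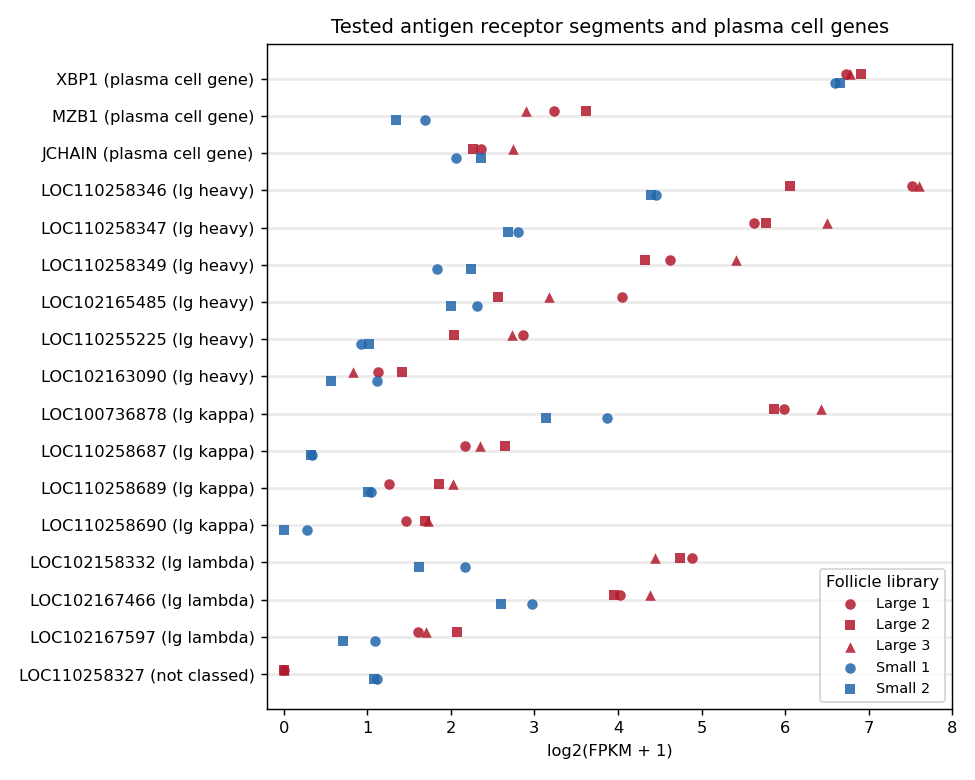
Each point is the level of 1 library as log2(FPKM + 1) for the 17 members that passed the filter, with large follicles in red and small follicles in blue and the replicate shown by the marker. The large follicle points lie to the right of the small follicle points in 14 members, lie to the left in LOC110258327, and overlap with them in JCHAIN and LOC102163090.

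The heavy chain constant regions carried most of the immunoglobulin signal, and of 6 tested, 3 were called higher. LOC110258346 (unplaced scaffold, 3657940 to 3664149), a heavy constant region, had 183, 65.6 and 193 FPKM in the 3 large libraries, in order of replicate number, and 20.9 and 20.01 FPKM in the 2 small ones. Large follicle replicate 2 stood well below the other large libraries and still above both small ones. The mean rose 7.19-fold, from 20.5 ± 0.636 to 147 ± 70.7 FPKM (log2 difference 2.64, SE 0.41, limma adjusted p = 0.0194). Leaving out large follicle replicate 1 ended the call (limma adjusted p = 0.0975), as did leaving out small follicle replicate 2 (limma adjusted p = 0.0566).

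LOC110258347, a second heavy constant region of the same scaffold (3611741 to 3619786), had 48.3, 53.7 and 89.6 FPKM in the large and 5.97 and 5.40 FPKM in the small follicles. The groups stood far apart, and its log2 difference ranked 9 among all 13087 rows tested. The mean rose 11.2-fold, from 5.68 ± 0.401 to 63.9 ± 22.5 FPKM (log2 difference 3.23, SE 0.28, limma adjusted p = 0.000863). LOC110258349, another of these constant regions (3631047 to 3635767), had 23.6, 18.97 and 41.5 FPKM against 2.56 and 3.71 FPKM. It rose 8.94-fold without overlap (log2 difference 2.75, SE 0.34, limma adjusted p = 0.00641), and lost the call when large follicle replicate 1 was left out (limma adjusted p = 0.0545). With no filter on low values, limma adjusted p-values were 0.151 for LOC110258346 and 0.0786 for LOC110258349, and voom on fragments gave 0.0855 for LOC110258346.

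The other heavy constant regions did not pass the test. LOC110255225 (3717842 to 3723115) had 6.27, 3.09 and 5.66 FPKM in the large and 0.901 and 1.03 FPKM in the small follicles, without overlap (log2 difference 1.57, SE 0.33, limma adjusted p = 0.0648). It passed when large follicle replicate 2 was left out (limma adjusted p = 0.00625). LOC102165485, whose span (3580107 to 3774450) covers the other heavy constant regions, had 15.5, 4.90 and 8.04 against 3.98 and 2.99 FPKM. Its groups did not overlap either, but the large libraries spread widely (log2 difference 1.11, SE 0.41, limma adjusted p = 0.358). It passed when large follicle replicate 2 was left out (limma adjusted p = 0.0474). LOC102163090 (3592392 to 3612114) had 1.18, 1.65 and 0.773 against 1.16 and 0.476 FPKM, with overlapping groups (log2 difference 0.28, SE 0.29, limma adjusted p = 0.839). Its ratio of means was 1.47, and 2.53 without small follicle replicate 1. LOC106508719 lay below the filter, at 0.543, 0.860 and 1.49 against 0.410 and 0.389 FPKM, LOC110258369 had at most 2 fragments in a library, and LOC110258348 was at 0 throughout.

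These constant regions overlap in the annotation and belong to 1 gene family, and the treatment of fragments they share was not given, so the level of a single row is less certain than that of the locus. The make-up of the locus differed among libraries. LOC110258346 took 58.5%, 38.0% and 49.95% of the heavy constant fragments in the large follicles, and 48.9% and 49.8% in the small follicles. Its share in large follicle replicate 2 (Wilson 95% interval 35.9% to 40.2%) was below that of every other library. LOC110258347 took 15.4%, 31.0% and 23.1% in the large and 13.9% and 13.4% in the small follicles. LOC102165485 went the other way, with 8.20%, 4.69% and 3.45% in the large and 15.4% and 12.3% in the small follicles. Intervals of this kind cover counting error only, since reads without molecular identifiers are not independent molecules.

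**Figure D2:**
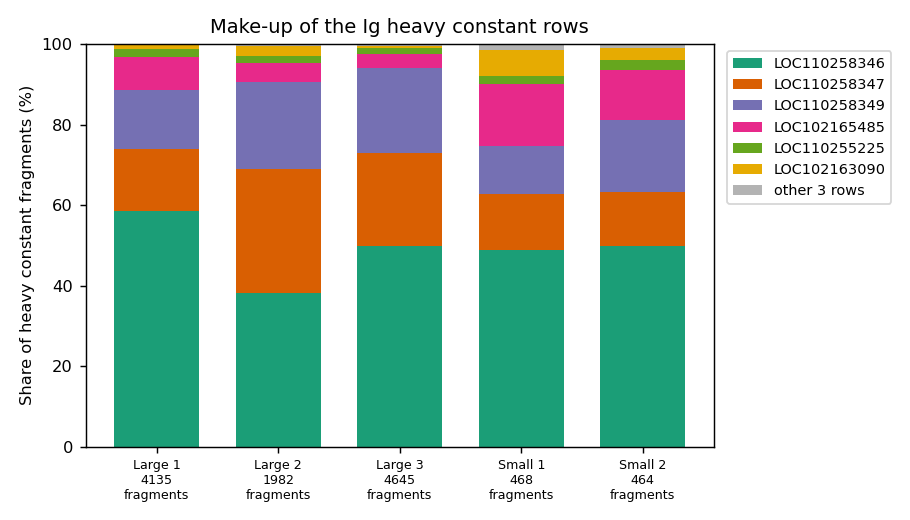
Stacked bars give the percentage of heavy constant region fragments that each row took in each library, with the number of fragments under the bar. LOC110258346 was the most abundant row in all 5 libraries, at 38.0% in large follicle replicate 2 and 48.9% to 58.5% in the others, and the share of LOC102165485 was higher in both small follicle libraries than in the 3 large ones.

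Heavy variable segments gave almost no signal. The 16 rows together held 2, 0 and 6 fragments in the large and 2 and 7 fragments in the small follicles, beside 4135, 1982 and 4645 constant region fragments in the large and 468 and 464 in the small follicles. LOC110258662 reached 1.36 FPKM in small follicle replicate 2, from at least 6 fragments. LOC110258820 reached 0.996 FPKM in large follicle replicate 3, from at least 1 fragment. The count of LOC110258820 assumes a length of 96 of its 634 listed bases, so the true count may be higher. Rows of another biotype that name the heavy chain stood outside the rule and were read beside it. LOC396781, described as IgG heavy chain, had 42.4, 19.8 and 60.5 FPKM against 4.83 and 9.59 FPKM. It was called higher (log2 difference 2.28, SE 0.43, limma adjusted p = 0.0476), a call lost without large follicle replicate 1 (limma adjusted p = 0.182) and without small follicle replicate 1 (limma adjusted p = 0.185). LOC110258827, a transcribed pseudogene described as similar to a heavy variable segment, had 11.0, 7.23 and 30.2 FPKM against 2.70 and 3.04 FPKM (log2 difference 1.91, SE 0.48, limma adjusted p = 0.127). Without large follicle replicate 2 it passed (limma adjusted p = 0.00364).

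Of 4 kappa light chain rows tested, 3 were called higher. Among these, LOC110258687 and LOC110258690 passed the filter through the large libraries only, so that their groups had to differ. LOC100736878, a kappa variable segment row whose annotated span runs over much of the locus (chromosome 3, 57214388 to 57321338), had 62.2, 57.5 and 84.9 FPKM in the large and 13.6 and 7.79 FPKM in the small follicles. The lowest large library lay above the highest small one by a wide margin. Its mean rose 6.37-fold, from 10.7 ± 4.14 to 68.2 ± 14.7 FPKM (log2 difference 2.59, SE 0.28, limma adjusted p = 0.00335).

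LOC110258687 and LOC110258690, kappa variable segments of an unplaced scaffold, were also called higher, from few fragments. LOC110258687 had 16, 21 and 17 fragments (3.49, 5.28 and 4.08 FPKM) in the large follicles and 1 fragment in each small library (0.264 and 0.250 FPKM). The ratio of its pooled fragments was 16.5, with a 95% counting interval of 4.36 to 139.9 (log2 difference 2.06, SE 0.28, limma adjusted p = 0.00931). LOC110258690 had 10, 11 and 12 fragments (1.75, 2.22 and 2.31 FPKM) against 1 and 0, a ratio of 20.2 with an interval of 3.38 to 821.6 (log2 difference 1.48, SE 0.25, limma adjusted p = 0.0295). Both calls were lost when certain single libraries were left out. The log2 differences then stayed within 1.93 to 2.17 for LOC110258687 and 1.35 to 1.62 for LOC110258690. Without large follicle replicate 1 the limma adjusted p was 0.0563 for LOC110258687 and 0.0995 for LOC110258690. Without small follicle replicate 2 they were 0.0563 and 0.223, and without small follicle replicate 1 LOC110258690 had 0.0770. The ratio of FPKM means of LOC110258690 was 19.8, fell to 9.90 without small follicle replicate 2, and could not be formed without small follicle replicate 1. With no filter on low values the limma adjusted p-values of LOC110258687 and LOC110258690 were 0.0938 and 0.113, and with voom on fragments 0.0764 and 0.104. LOC110258689, which lies within the span of LOC110258687, had 1.40, 2.62 and 3.08 FPKM against 1.06 and 1.004 FPKM and did not pass (log2 difference 0.69, SE 0.30, limma adjusted p = 0.469). LOC110258705 and LOC102158624 stayed below 1 FPKM in every library.

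Of 3 lambda light chain rows tested, 1 was called higher: LOC102158332, a constant region (chromosome 14, 48760057 to 49007759). It had 28.4, 25.8 and 20.7 FPKM in the large and 3.50 and 2.07 FPKM in the small follicles. The 3 large libraries lay close together and far above both small ones. The mean rose 8.97-fold, from 2.78 ± 1.006 to 25.0 ± 3.95 FPKM (log2 difference 2.79, SE 0.28, limma adjusted p = 0.00177). LOC102167466 (48828678 to 48840546), a lambda variable segment inside that span, had 15.2, 14.5 and 19.9 FPKM against 6.84 and 5.04 FPKM. Its ratio of means was 2.78 and it missed the threshold (log2 difference 1.34, SE 0.26, limma adjusted p = 0.0543). It passed when large follicle replicate 2 was left out (limma adjusted p = 0.0206). LOC102167597 (48813163 to 48818135), another variable segment there, had 2.04, 3.21 and 2.25 FPKM against 1.12 and 0.639 FPKM (log2 difference 0.89, SE 0.28, limma adjusted p = 0.262). The second lambda constant region, LOC110256717, held at most 5 fragments in a library.

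Summed over all 50 rows, immunoglobulin fragments per 1000000 fragments of the library were 447, 282 and 551 in the large and 69.4 and 59.4 in the small follicles. The Wilson 95% interval of the lowest large library was 271 to 292 and that of the highest small library was 64.3 to 74.9. Libraries of 1 group also differed beyond counting error, with an interval of 537 to 565 in large follicle replicate 3. In summed FPKM the means were 379 ± 110.7 and 58.7 ± 7.87, a ratio of 6.46. The ratio was 7.12 for heavy, 6.03 for kappa and 4.60 for lambda rows. No test was made on sums over the members. Heavy rows took between 70.4% and 80.7% of the immunoglobulin fragments in the large and 71.1% and 79.0% in the small follicles. Kappa took 65.7%, 65.99% and 74.2% of the light chain fragments in the large follicles. In the small follicles it took 65.5% (Wilson 95% interval 58.5% to 71.8%) and 63.2% (54.5% to 71.1%). The heavy share overlapped between the groups. The kappa share was higher in the 3 large libraries than in both small ones, and the intervals of the small libraries covered 65.7% and 65.99%.

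**Figure D3:**
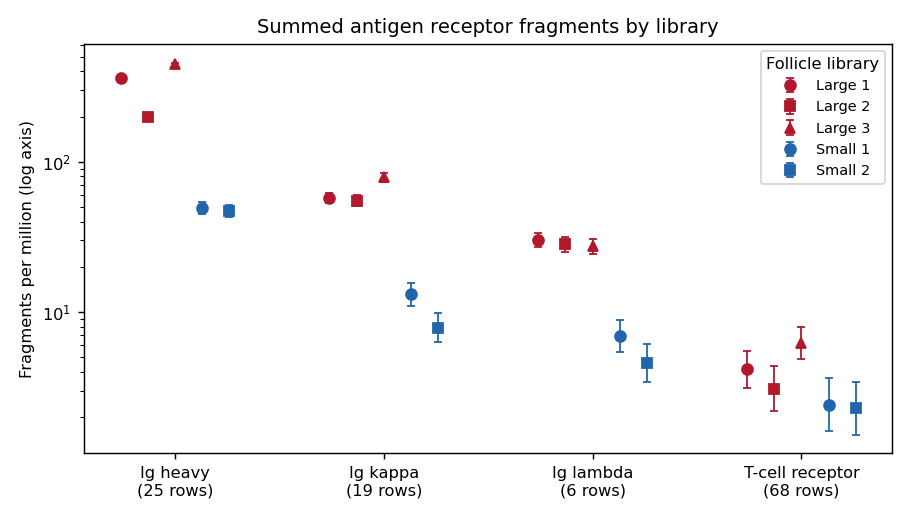
Points give the summed fragments per 1000000 of each chain class in each library on a log axis, with Wilson 95% intervals as bars that cover counting error only. The 3 large follicle libraries lie above both small ones in each of the 4 classes drawn, by a wide margin for heavy, kappa and lambda rows, and with the pooled T-cell receptor rows below 7 per 1000000 in all libraries.

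T-cell receptor rows stayed near the detection limit. None of the 68 rows passed the filter, the highest level in any library was 0.878 FPKM, and 37 rows were at 0 in all 5 libraries. In a fit with no filter on low values, limma called 0 of the 31 rows above 0 at an adjusted p under 0.05, with 2 at an unadjusted p under 0.05. Their summed fragments were 48, 31 and 65 in the large and 23 and 23 in the small follicles. That is 4.17, 3.10 and 6.21 per 1000000 fragments against 2.42 and 2.29. The groups did not overlap, but the Wilson 95% interval of large follicle replicate 2 (2.19 to 4.40) covered both small values. In summed FPKM the means were 3.84 ± 1.62 and 2.04 ± 0.133, a ratio of 1.88. Every per-library total of the 4 gamma constant regions lay within 6 to 28 fragments, with the groups overlapping. LOC102158125 among them had 0.494, 0.325 and 0.543 FPKM against 0.341 and 0.162 FPKM. LOC102158002 had 0.336, 0 and 0.517 FPKM against 0.325 and 0.616 FPKM. LOC102158411 reached the 0.878 FPKM in large follicle replicate 3 and was at 0 in large follicle replicate 2, and LOC110255503 had at most 4 fragments in a library. The beta constant region LOC102167789 had at least 1 fragment, at 0.209 FPKM in large follicle replicate 3 alone.

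The T-cell receptor variable segments of highest mean level were both beta rows. LOC102162186 had 15, 10 and 15 fragments in the large and 7 and 1 in the small follicles, at 0.584, 0.448 and 0.642 against 0.329 and 0.0446 FPKM. LOC102158691 had 0.268, 0.617 and 0.736 against 0.324 and 0.460 FPKM, with overlap. The next in level, LOC102157901, LOC102165645 and LOC102166836, held at most 4 fragments in a library and were at 0 in both small follicles. Rows of other biotypes that name these chains were read as well. LOC102158035, which RefSeq gives the synonym TCR-a, had 3.45, 4.46 and 4.26 FPKM against 1.69 and 2.96 FPKM without overlap (log2 difference 0.63, SE 0.30, limma adjusted p = 0.529). LOC100621559, described as a beta chain constant region, had 1.53, 0.726 and 0.891 against 0.326 and 0.723 FPKM and was not tested.

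Among the 19 rows not classed, 11 were above 0 and 1 was tested. LOC110258327, a variable segment on an unplaced scaffold (13208 to 13855), was at 0 in all 3 large libraries and had 5 fragments in each small library (1.17 and 1.11 FPKM). It passed the filter through the small libraries only. With 3 fragments over the whole large group as the floor, it was 5.45-fold lower in large follicles, taking the 10 small fragments as exact. The 95% counting interval of the large over small ratio reached up to 0.273, a weaker bound. It was the 1 member called lower (log2 difference -1.10, SE 0.21, limma adjusted p = 0.0476). The call was kept in 6 of 13 alternative fits. It was lost with large follicle replicate 1 or 3 left out (limma adjusted p = 0.179 and 0.0804) and with small follicle replicate 1 or 2 left out (limma adjusted p = 0.139 and 0.193). The rows not classed summed to the same mean level in both groups, 2.57 FPKM.

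Of the 3 plasma cell genes, MZB1 was called and JCHAIN and XBP1 were not. MZB1 (chromosome 2, 141277541 to 141279652) had 8.43, 11.3 and 6.45 FPKM in the large and 2.24 and 1.53 FPKM in the small follicles, from 82, 95 and 57 against 18 and 13 fragments. The groups stood apart, with a mean of 8.71 ± 2.41 against 1.88 ± 0.498 FPKM, a 4.62-fold rise (log2 difference 1.73, SE 0.31, limma adjusted p = 0.0398). This call was among the less stable ones: it was kept in 4 of 14 alternative fits, with limma adjusted p-values from 0.00843 to 0.215. It was lost with large follicle replicate 1 left out (limma adjusted p = 0.172) and with small follicle replicate 1 or 2 left out (limma adjusted p = 0.0879 and 0.215).

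JCHAIN (chromosome 8, 67439405 to 67448628) had 4.15, 3.80 and 5.71 FPKM against 3.17 and 4.13 FPKM. The groups overlapped, with a ratio of means of 1.25 (log2 difference 0.25, SE 0.30, limma adjusted p = 0.868). XBP1 (chromosome 14, 46011239 to 46016526) was abundant everywhere, at 105, 119 and 109 FPKM in the large and 95.8 and 100.07 FPKM in the small follicles. Its values did not overlap but differed by a ratio of 1.13 (log2 difference 0.18, SE 0.19, limma adjusted p = 0.846). The log2 difference was smaller than its SE.

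Genes of the cells that use these receptors were read from fixed lists. Of 15 B cell genes, 14 had a row and 7 were tested, and none was called by limma, with 1 at an unadjusted p under 0.05, against 10.4% of all rows tested. The list had a median log2 difference of 0.17, and its summed FPKM ranged from 14.75 to 17.1 in large and from 12.9 to 14.4 in small follicles. FCRLA, an intracellular Fc receptor-like protein of B cells, had 1.11, 1.17 and 0.867 FPKM against 0.168 and 0.213 FPKM, reaching the filter through the large libraries only (log2 difference 0.78, SE 0.23, limma adjusted p = 0.199). CD79A and CD79B, the signalling partners of the B cell receptor, had log2 differences of 0.29 and -0.21 (limma adjusted p = 0.850 and 0.868). BLNK, an adaptor below that receptor, had 0.45 (limma adjusted p = 0.652) and CIITA, the master regulator of MHC class II genes, -0.31 (limma adjusted p = 0.789). The defining B cell genes MS4A1, which encodes CD20, and PAX5, the B cell identity factor, were at most 0.126 and 0.0502 FPKM in any library.

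Of 16 further plasma cell genes, 15 had a row, 7 were tested and none was called by limma, with 0 at an unadjusted p under 0.05. The median log2 difference was 0.26, and the summed FPKM ranged from 777.7 to 1025 in large and from 637.7 to 876.7 in small follicles, so the groups overlapped. DERL3 and SEC11C, which serve protein quality control and signal peptide removal in the endoplasmic reticulum, had log2 differences of 0.49 and 0.34 (limma adjusted p = 0.655 and 0.678). TXNDC5, a disulfide isomerase, had 0.26 (limma adjusted p = 0.766). SDC1, the plasma cell surface marker CD138 that epithelial cells also carry, had 7.75, 5.81 and 4.01 FPKM against 8.18 and 8.51 FPKM (log2 difference -0.48, limma adjusted p = 0.684). PRDM1, the repressor that drives plasma cell differentiation, had 1.31, 1.24 and 1.25 FPKM against 0.662 and 1.43 FPKM (log2 difference 0.18, limma adjusted p = 0.897). POU2AF1, a B cell coactivator of octamer factors, was below the filter and did not overlap, at 0.404, 0.652 and 0.622 against 0.293 and 0.278 FPKM. CD27 and TNFRSF13B, receptors of the tumor necrosis factor family on B lineage cells, were also below it and lay the other way without overlap. CD27 had 0.695, 0.267 and 0.510 against 1.40 and 0.930 FPKM, and TNFRSF13B had 0.370, 0.355 and 0.406 against 0.484 and 0.953 FPKM. IRF4, a factor needed by plasma cells, did not exceed 0.185 FPKM. CD38 and TNFRSF17, plasma cell surface proteins, overlapped between the groups.

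The 18 genes of the unfolded protein response, to which XBP1 belongs, were all tested and none was called by limma, with 0 at an unadjusted p under 0.05. Their median log2 difference was 0.01. SDF2L1, an endoplasmic reticulum chaperone partner, had 0.41 (limma adjusted p = 0.741) and MANF, a secreted stress response protein, 0.26 (limma adjusted p = 0.827). HYOU1 and HSP90B1, chaperones there, had -0.18 and 0.19 (limma adjusted p = 0.893 and 0.904). HSPA5, the main chaperone of the compartment, had -0.15 (limma adjusted p = 0.917). ERN1, the sensor that splices XBP1 RNA, had -0.19 (limma adjusted p = 0.917), and DNAJB9, an XBP1 target, 0.14 (limma adjusted p = 0.936). Without 1 library each, the values of MANF, HYOU1, HSP90B1, HSPA5, ERN1 and DNAJB9 changed sign.

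Of 17 T cell genes, 15 had a row, 8 were tested and none was called by limma, with 1 at an unadjusted p under 0.05. These 8 had a median log2 difference of 0.16, and the list's summed FPKM was 15.5 to 22.8 in large and 13.03 to 18.0 in small follicles. CD4, a T helper cell co-receptor also carried by myeloid cells in some species, had 1.83, 2.28 and 2.71 FPKM against 0.368 and 0.523 FPKM. CD4 reached the filter through the large libraries only, so that its groups had to differ. The ratio of means was 5.10, and it missed the threshold (log2 difference 1.17, SE 0.26, limma adjusted p = 0.0813). CD3E, a signalling chain of the T-cell receptor, had 1.90, 1.79 and 2.25 FPKM against 1.36 and 1.54 FPKM (log2 difference 0.28, limma adjusted p = 0.812). LAT and LCK, which relay its signal, had log2 differences of 0.34 and 0.23 (limma adjusted p = 0.847 and 0.863), and without small follicle replicate 1 both changed sign. CD8A, the co-receptor of cytotoxic T cells, stayed at or below 0.433 FPKM.

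Of 10 genes of receptor gene recombination and class switching, 5 were tested and none was called by limma, with 0 at an unadjusted p under 0.05 and a median log2 difference of -0.22. RAG1 and RAG2, the recombinase, were at 0 in all 5 libraries. DNTT, which adds bases at the joints, was below the filter. PRKDC, DCLRE1C, XRCC4 and UNG, which repair DNA in all cells, had log2 differences of -0.44, -0.22, -0.22 and 0.20 (limma adjusted p = 0.716, 0.884, 0.890 and 0.893). DCLRE1C, XRCC4 and UNG changed sign without 1 of the small follicle libraries.

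**Figure D4:**
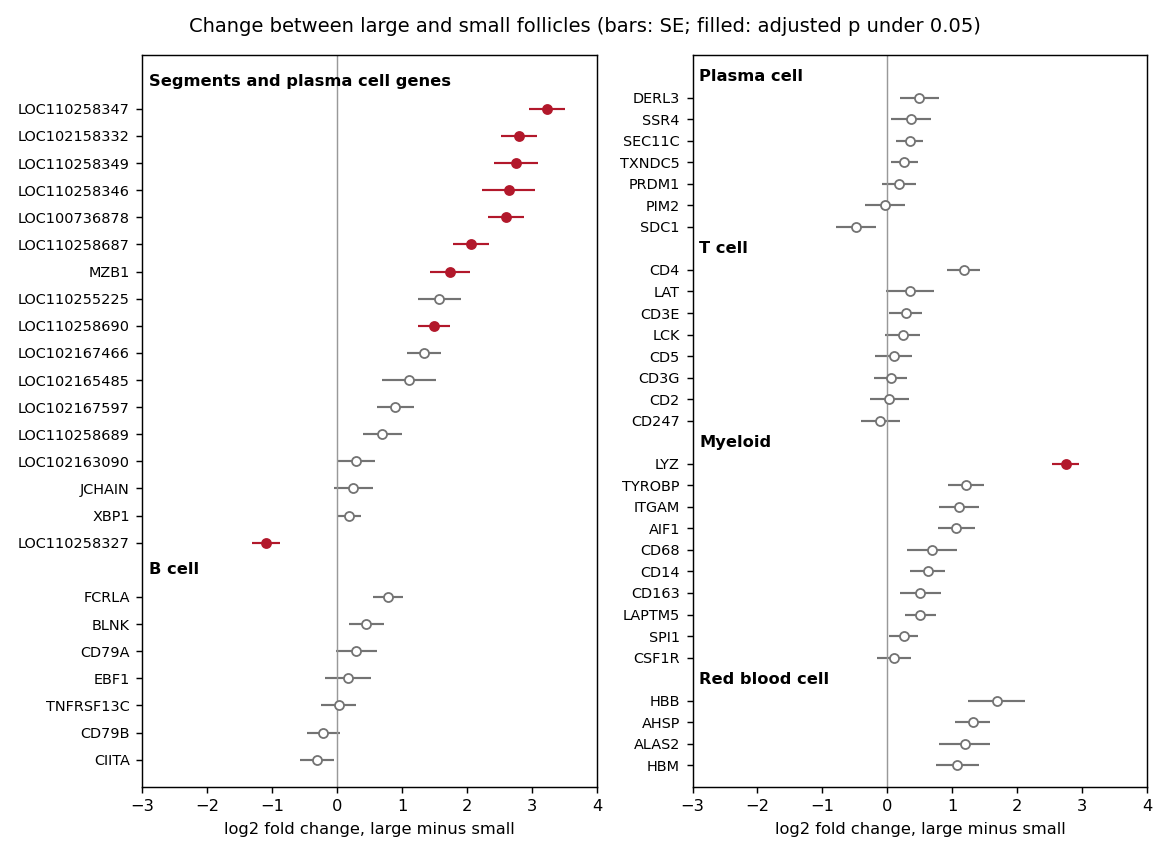
Points give the log2 difference between large and small follicles on the log2(FPKM + 1) scale, bars the SE from limma, and filled points an adjusted p under 0.05, for the tested members and the tested genes of 5 lists. The called immunoglobulin rows lie between 1.48 and 3.23, while the genes of the B cell, plasma cell and T cell lists, which do not hold MZB1, lie between -0.48 and 1.17 with none called.

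Markers of other blood-borne cells were read beside these values. All 10 myeloid genes had higher values in large follicles, against 39.9% of all rows tested, with a median log2 difference of 0.65, and 1 was called. Of the 10, 7 did not overlap, against 10.9% of all rows tested, and 5 had an unadjusted p under 0.05, against 10.4%. The summed FPKM of the list was 273 to 381 in large and 156 to 182 in small follicles. LYZ, the lysozyme of myeloid cells, had 53.7, 64.0 and 62.5 FPKM against 7.48 and 8.75 FPKM (log2 difference 2.74, SE 0.21, limma adjusted p = 0.000551). TYROBP, AIF1 and ITGAM, general myeloid genes, had log2 differences of 1.21, 1.06 and 1.10 (limma adjusted p = 0.0920, 0.146 and 0.180). TYROBP passed with large follicle replicate 3 left out (limma adjusted p = 0.0215), and AIF1 with quantile normalization (0.0483) and median-of-ratios scaling (0.0494).

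Of 6 red blood cell genes, 4 were tested and none was called by limma, with 4 at an unadjusted p under 0.05, against 10.4% of all rows tested. These 4 had a median log2 difference of 1.25, and the list's summed FPKM was 1006 to 1680 in large and 234 to 703 in small follicles, without overlap. HBB, the beta globin of red blood cells, had 1295, 1663 and 995 FPKM against 697 and 231 FPKM (log2 difference 1.68, SE 0.44, limma adjusted p = 0.142). HBB passed with large follicle replicate 3 left out (limma adjusted p = 0.0192), with small follicle replicate 1 left out (0.0158) and with a common FPKM sum (0.0258). AHSP, which stabilises alpha globin and reached the filter through the large libraries only, had 2.79, 2.83 and 1.80 FPKM against 0.396 and 0.376 FPKM (log2 difference 1.31, SE 0.27, limma adjusted p = 0.0627). It passed with large follicle replicate 2 or 3 left out (limma adjusted p = 0.0431 and 0.0317) and with median-of-ratios scaling (0.0409). HBM, another globin, and ALAS2, the heme synthesis enzyme of red cells, had log2 differences of 1.07 and 1.19 (limma adjusted p = 0.242 and 0.277). SLC4A1, the anion exchanger of the red cell membrane, was at or near 0. HBB and the immunoglobulin sum were both higher in every large library than in either small library. Within the groups the order differed. Large follicle replicate 2 had the highest HBB value and the lowest immunoglobulin sum of the large libraries. Small follicle replicate 1 had the higher HBB value and also the higher immunoglobulin sum of the small libraries. The part of blood or of myeloid cells in the immunoglobulin difference was not tested.

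The tissue label was read from 10 granulosa and theca genes, which were all tested, with 1 called by limma. CYP17A1, the androgen-forming enzyme of theca cells, had 726, 2451 and 1043 FPKM against 145 and 147 FPKM (log2 difference 3.07, SE 0.44, limma adjusted p = 0.0121). STAR, which carries cholesterol into mitochondria, CYP19A3, an aromatase, and FSHR, the receptor of follicle-stimulating hormone, had log2 differences of 1.75, 1.65 and -1.75 (limma adjusted p = 0.0604, 0.181 and 0.201). The median log2 difference of the 10 genes was 0.82, with 6 higher and 4 lower. Values did not overlap for 4 that were higher and 4 that were lower, against 10.9% and 15.2% of all rows tested. Their summed FPKM was at least 6703 in every large and at most 4672 in every small library. Most of this sum came from INHA, with 4474, 11739 and 6453 FPKM against 2876 and 3515 FPKM.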

How the data were processed

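Gene expression was measured by paired-end RNA sequencing of 3 large and 2 small follicle libraries, from TRIzol RNA and a stranded mRNA kit, per the labels' protocols. The deposited values are FPKM per gene, which the authors computed. Per the submitters' processing notes, which give tools but no roles, the build was Sscrofa11.1 and the tools included featureCounts 1.5.0-p3, HISAT2 2.0.5, StringTie 1.3.3, Trimmomatic 0.38 and FastQC 0.11.4. Strand use in counting and the treatment of shared fragments were not given in the sources used here.

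Samples were grouped by their titles. Library totals were worked back from the commonest value of FPKM times gene length, taken as 1 fragment, and refined on larger counts. Fragments per gene followed from these totals. Of 23353 rows above 0, 49.5% gave whole fragments (within 0.001) with the listed length and 11791 with a shorter length found by search, which was so for 70 of the 72 members above 0. Recovered fragments came to 99.5% to 99.6% of the totals. Libraries of the same group differed by more than sampling noise (chi-square per degree of freedom at least 28.5) and each counted as 1 sample. RefSeq identifiers of the same assembly matched 30335 rows, all 137 segments among them.

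The test was limma 3.58.1 in R 4.3.3, two-sided, on log2(FPKM + 1) with a mean-variance trend, group as the only term, an FPKM of at least 1 in at least 2 libraries, and adjustment over all 13087 rows tested. On simulated libraries of this comparison (13087 rows, 20 runs, 200 changed rows each) it found 23.4% of 2-fold, 89.4% of 4-fold and 99.5% of 8-fold changes, and 7.42% of calls were false. The simulation drew each row independently, with a spread taken from a trend over rows. It held no shift shared by many rows of a library, so its rates may be too favourable for the real libraries. The floor for a group at 0 was 3 fragments over the group. Alternatives covered other pseudocounts (0.1 and 5), no filter, a mean FPKM of at least 5, 3 scalings, limma voom on the recovered fragments, a replicate block and each library left out. The block was fitted only on the replicate numbers that both groups share, without large follicle replicate 3. The members, the 10 gene lists and the tests were chosen with earlier results of these data known. Named genes were the 3 plasma cell genes, the constant regions above 0, the variable segments of highest mean, every called member, and from each list the 4 genes of smallest p with some defining genes. Values of the other list genes are not reported here.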

Additional observations from a re-analysis of the deposited data

How the results depend on the processing

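Low counts limit most members: 46 of the 72 above 0 rest on at most 10 recovered fragments in all. The 128 rows called became 32 with no filter, 41 with a mean FPKM of at least 5, 201 with quantile normalization, 210 with median-of-ratios scaling and 70 with limma voom on fragments. With each library left out in turn they ranged from 29 (without large follicle replicate 1) to 268 (without large follicle replicate 2), with 222, 78 and 60 without large follicle replicate 3, small follicle replicate 1 and small follicle replicate 2. The 8 members called higher became 2 with no filter, 4 with voom and 5 with the filter on mean FPKM, and ranged from 3 to 11 with each library left out. The 1 member called lower became 0 with a pseudocount of 5, with the replicate block, with voom and with the filter on mean FPKM, and 0 to 1 with each library left out. LOC110258347 and LOC102158332 were called in all 14 alternative fits and LOC100736878 in 13 of 14 (limma adjusted p = 0.0517 with no filter).

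The log2 ratio of summed immunoglobulin FPKM was 2.69, and 2.24 over variable segments alone. With each library left out it ranged from 2.48 to 2.90. That of T-cell receptor rows was 0.91 and ranged from 0.52 to 1.12. Summing only rows classed by a neighbouring row (2.71 and 1.19), or leaving out the row of highest mean (2.60 and 1.004), was chosen after seeing the data.

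Whether the replicate numbers pair the libraries could not be decided. Same-numbered libraries deviated with correlations of -0.00148 and -0.449. The deviations of the small libraries mirror each other, so each correlation recurs with its sign changed for the other small library (0.00148 and 0.449). The replicate block used only the replicate numbers that both groups share, so large follicle replicate 3 was not in that fit. With it limma called 154 rows, 6 members higher and 0 lower, and HBB and TYROBP passed (limma adjusted p = 0.000141 and 0.0227). The log2 difference of HBB was 1.87 there, the same as with large follicle replicate 3 left out and no block.

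Of the single-gene values under the alternatives, 15 changed sign and none of these was of a called gene. With each library left out in turn, the log2 differences ranged from -0.57 to 0.14 for DCLRE1C, -0.14 to 0.43 for DNAJB9, -0.52 to 0.15 for ERN1, -0.27 to 0.65 for HSP90B1, -0.57 to 0.27 for HSPA5 and -0.59 to 0.24 for HYOU1. They ranged from -0.15 to 0.84 for LAT, -0.033 to 0.50 for LCK, -0.025 to 0.54 for MANF, -0.099 to 0.45 for PRDM1, -0.053 to 0.45 for UNG and -0.48 to 0.041 for XRCC4. With the replicate block DNAJB9 had -0.028. The causes were not tested.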

Other observations

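Receptors that bind antibodies were read from a list of 8 genes, of which 7 were tested and none was called by limma, with 4 at an unadjusted p under 0.05. They had a median log2 difference of 0.45, and the list's summed FPKM was 363 to 396 in large and 276 to 294 in small follicles. PIGR, which carries polymeric IgA and IgM across epithelia, had 1.03, 1.46 and 0.861 FPKM in the large and 3.85 and 4.18 FPKM in the small follicles. It stood against the direction of the immunoglobulin rows without overlap and missed the threshold (log2 difference -1.25, SE 0.27, limma adjusted p = 0.0765), which it passed when large follicle replicate 2 was left out (limma adjusted p = 0.0342). FCER1G, the signalling chain of Fc receptors on myeloid cells, had 34.8, 63.1 and 57.1 FPKM against 27.7 and 19.1 FPKM (log2 difference 1.09, SE 0.29, limma adjusted p = 0.151). FCGR3A and FCGR2B, receptors for IgG, had log2 differences of 0.75 and 0.73 (limma adjusted p = 0.264 and 0.432). FCGRT, which recycles IgG, was abundant and similar in level, with 227, 193 and 195 FPKM against 181 and 187 FPKM. FCAMR was at 0 in all 5 libraries.

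Of 10 ligands and receptors that guide or sustain B and plasma cells, 6 were tested and none was called by limma, with 1 at an unadjusted p under 0.05 and a median log2 difference of 0.31. TNFSF13B reached the filter through the large libraries only. CXCL13, the chemokine that draws B cells, had 0.505, 0.166 and 0.714 FPKM in the large and 1.66 and 1.90 FPKM in the small follicles, reaching the filter through the small libraries only (log2 difference -0.94, SE 0.26, limma adjusted p = 0.171). CXCR4, a homing receptor of many leukocytes, had 0.46 (limma adjusted p = 0.637). TNFSF13 and TNFSF13B, the plasma and B cell survival factors APRIL and BAFF, had log2 differences of 0.42 and 0.43 (limma adjusted p = 0.674 and 0.678).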
